A study of Homo sapiens with 2 samples.

Results

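SOX9 peaks that lie between divergent gene pairs are described here. A divergent pair was defined as 2 protein-coding genes on opposite strands that point away from each other and whose canonical transcription start sites (TSSs) lie at most 1 kb apart in the GENCODE annotation of hg19. A member is a SOX9 peak whose summit, the position of the highest tag density in the peak, lies between both TSSs or within 100 bp of either. The annotation held 974 such pairs with 1877 genes, and 651 of the 17847 SOX9 peaks (3.65%) were members. The peaks came from chromatin immunoprecipitation and sequencing (ChIP-seq) of endogenous SOX9 in HT-29 cells, an established human colorectal adenocarcinoma line for which the labels list no treatment, knockdown or added gene. There was 1 ChIP library, made with an anti-SOX9 antibody, and 1 library of input DNA, which is sonicated chromatin taken without antibody. Both maps were built from 12320108 tags each, the input having been randomly reduced to that number by the authors. With 1 library per group no difference has a replicate check, so no p-value is given, and every 95% interval covers counting error only. The files measure no RNA, so neither the identity of the line nor the activity of these genes was checked.

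Pairs of genes that start close together in opposite directions are common in the human genome and are known as bidirectional promoters. They usually lie in CpG-rich DNA, seldom hold a TATA box and often serve housekeeping genes, among them many that act in DNA repair, DNA replication and mitochondrial translation. The factors best known at such promoters are NF-Y, which binds CCAAT, and members of the ETS family, whose core site is GGAA. SOX9 is a high-mobility-group protein that binds the minor groove at ACAAAG or ACAATG, directs cartilage and gut stem cell programmes and is expressed in the crypts of the intestine.

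As examples of the CCAAT box, 25-base stretches of hg19 around the box nearest the summit are shown. They come from 4 of the 6 members with the most tags among those with a CCAAT box. The stretches at SHARPIN/MAF1 and PRKDC/MCM4, which rank second and next among these 6, are not shown. CCAAT is in capitals, and each stretch is written 5′ to 3′ on the strand that reads CCAAT. They lie between LMNTD2 and RASSF7, which encodes a RAS-association domain protein (chr11:560892-560916, plus strand), between SKA2, which encodes a kinetochore protein, and PRR11 (chr17:57232618-57232642, minus strand), between CBX5, which encodes the heterochromatin protein HP1-alpha, and HNRNPA1, which encodes a splicing factor (chr12:54674415-54674439, plus strand), and between TEPSIN, an accessory gene of the AP-4 adaptor, and NDUFAF8, an assembly factor of respiratory complex I (chr17:79212949-79212973, minus strand). The middle base of the box was 11, 8, 11 and 3 bp from the summit in these 4 members. Each box was chosen as the nearest to its summit, and the median distance over all 437 boxes of members was 37 bp.
LMNTD2/RASSF7: cgctgagcagCCAATaggggtgcta
SKA2/PRR11: aacggaggagCCAATgagtgcgaga
CBX5/HNRNPA1: tttcaagtatCCAATcagagctgtt
TEPSIN/NDUFAF8: ggcctaggctCCAATtgtttacgaa

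A second motif, CCGGAAG, an ETS core with its usual flank, is shown for 2 members of high tag number that held it, chosen after the values were seen. CCGGAAG is in capitals on the strand that reads it. The stretches lie between UFD1, a ubiquitin-binding cofactor of the VCP ATPase, and CDC45, a part of the replicative helicase (chr22:19466722-19466746, plus strand), and between CASKIN2 and TSEN54, a subunit of the tRNA splicing endonuclease (chr17:73512464-73512488, minus strand). The motif lay 86 and 43 bp from the summit.
UFD1/CDC45: agaggctcaCCGGAAGtgccggacc
CASKIN2/TSEN54: agcgcccgcCCGGAAGcgcaccccg

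A SOX9 summit was found at most divergent pairs. Of the 974 pairs, 696 (71.5%, 95% Wilson interval 68.5 to 74.2) held a summit, against 6021 of 18004 canonical TSSs outside every pair (33.4%, 32.8 to 34.1), for which a summit was counted from 1 kb upstream to 100 bp downstream. Over all 19881 canonical TSSs, paired or not, the share was 37.3%. The difference between pairs and unpaired TSSs was 38.0 percentage points (95% Newcombe interval 35.0 to 40.8). With the TSSs of all protein-coding transcripts in place of the canonical ones the shares were 52.3% and 35.8%, and the difference was 16.5 points (13.9 to 19.2). The window searched was shorter at the pairs, with a median of 435 bp, than at the unpaired TSSs, with 1101 bp. When a summit was counted only within 100 bp of a TSS and each TSS was counted once, 37.3% of 1877 paired TSSs (35.2 to 39.6) and 19.7% of 18004 unpaired TSSs (19.1 to 20.3) had one, a difference of 17.6 points (15.4 to 19.9). A summit in a narrow gap counts for both its genes in that measure. Pairs that share a gene are not independent of each other, and 649 of 904 sets of linked pairs (71.8%) had a summit.

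CpG content moved with this difference. A promoter was called CpG-rich when 1 kb centred on the gap or the TSS had at least 50% G and C and a ratio of observed to chance CpG of at least 0.6. By that measure 92.8% of pairs (91.0 to 94.3) and 62.3% of unpaired TSSs (61.6 to 63.0) were CpG-rich. Within CpG-rich promoters, 669 of 904 pairs (74.0%, 71.0 to 76.8) and 5464 of 11218 unpaired TSSs (48.7%, 47.8 to 49.6) had a summit, which left a difference of 25.3 points (22.2 to 28.2). Outside them, 27 of 70 pairs (38.6%, 28.0 to 50.3) and 557 of 6786 unpaired TSSs (8.21%, 7.58 to 8.89) had one. The part of other promoter properties, such as activity in these cells, was not tested. Unpaired TSSs were not uniform either. Among them, 3011 had another annotated TSS of any gene type on the other strand within 1 kb upstream. It could be that of a long noncoding RNA or a non-canonical TSS of a protein-coding gene. A summit was found at 52.9% (51.1 to 54.7) of these 3011, against 29.5% (28.8 to 30.3) of the 14993 with none.

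The share with a summit differed by gap, taken in classes that exclude their lower limit. It was 64.0% of 186 pairs with TSSs at most 100 bp apart (56.9 to 70.5), 67.5% at 100 to 200 bp, 74.0% at 200 to 300 bp, 77.4% at 300 to 500 bp and 75.4% of 171 pairs over 500 bp (68.5 to 81.3). Pairs with the widest gaps exceeded those with the narrowest by 11.5 points (1.90 to 20.7), and their search window was also wider. The median gap was 245 bp for members and 234 bp for all pairs.

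The 278 pairs with no summit were not at the level of the input. The highest ChIP signal from 100 bp before to 100 bp after the gap, in tags per 32-nt bin, had a median of 12 in them (quartiles 8 and 17), and that of the input a median of 5 (3 and 7). The ChIP maximum was above the input maximum in 244 of these 278 pairs. In the 696 pairs with a summit the ChIP median was 25 (19 and 38) and the input median 6 (5 and 8). ChIP was above input in every one of these pairs, which follows from calling the peaks against this input. Of the 278 pairs, 68 overlapped the interval of a SOX9 peak whose summit fell outside the window. The highest ChIP signal of any pair without a summit, 100 tags per bin against 5 in the input, was at LRRC41/UQCRH, a pair picked after the values were seen.

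Members were taller than promoter peaks outside the pairs, but their median fold enrichment was no higher. They held a median of 66 tags (quartiles 49 and 95, 95% interval of the median 64 to 69), against 57 (39 and 82, interval 56 to 58) in the 5876 peaks at unpaired promoters and 45 over all peaks. Their tags ran from 17 to 600. The fold enrichment over input given by the peak caller MACS had a median of 10.1 in members (interval 9.71 to 10.7) and 10.3 in peaks at unpaired promoters (10.2 to 10.4). Peak width, which moves with the number of tags, had a median of 964 bp in members and 897 bp in the unpaired set. The ratio of summed ChIP to summed input signal over the interval was 3.76 in members (3.66 to 3.90) at the median, against 3.96 in the unpaired set. Among the most enriched peaks the order was different. A fold of 20 or more was reached by 110 members (16.9%, 14.2 to 19.97) and 737 peaks at unpaired promoters (12.5%, 11.7 to 13.4), against 10.3% of all peaks. At least 200 tags were counted in 33 members (5.07%, 3.63 to 7.03) and 184 peaks of the unpaired set (3.13%, 2.72 to 3.61), against 1.91% of all peaks.

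Height also moved with the gap. Median tags were 52.5 at gaps of at most 100 bp (interval 46 to 56), 61 at 100 to 200 bp, 70 at 200 to 300 bp, 76.5 at 300 to 500 bp and 76.5 over 500 bp (66 to 83). Median width was 855.5 bp in the narrowest class and 1169.5 bp in the widest, and its part in the tags was not tested. Median fold was 9.67 (interval 8.93 to 10.6) in the narrowest class and 11.2 (9.69 to 12.7) in the widest, whose intervals overlap.

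The member with the most tags was between AKT1S1, which encodes an inhibitory subunit of mTORC1, and TBC1D17, a Rab GTPase-activating protein, with 600 tags and a ChIP maximum of 173 tags per bin against 9 in the input. Next came the promoter of RHBDD3 and EWSR1, which encodes an RNA-binding protein known from Ewing sarcoma fusions, with 359 tags and a maximum of 165 against 7. UFD1/CDC45 had 330 tags (130 against 8). These were followed by LMNTD2/RASSF7 with 328 tags (158 against 9) and by SHARPIN/MAF1 with 326 (147 against 10), a pair that joins a subunit of the linear ubiquitin chain assembly complex to a repressor of RNA polymerase III. These members were picked by tags from peaks called against this input, so ChIP maxima far above the input maxima follow from that choice. Both maxima are taken over the peak interval and need not lie in the same bin.

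AAGAB/IQCH had 325 tags in a gap of 125 bp and the highest ChIP maximum of any member, 228 tags per bin against 7 in the input. AAGAB assists the assembly of the AP-2 clathrin adaptor. PRKDC/MCM4 ranked next (163 against 11) and unites the catalytic subunit of the DNA-dependent protein kinase, a double-strand break repair enzyme, with a subunit of the replicative helicase. POLR2L/TSPAN4 had 297 tags (137 against 7), and POLR2L encodes a subunit common to the nuclear RNA polymerases. PI4KA/SNAP29, a lipid kinase and a SNARE protein, had 293 tags (210 against 7).

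SKA2/PRR11 had 281 tags (133 against 7) and ANKMY2/BZW2 had 266 (149 against 6). DPM1/MOCS3, which encode a dolichol-phosphate mannose synthase subunit and an enzyme of molybdenum cofactor synthesis, had 257 tags (120 against 8). Of these 12 members, 5 lay in 1-Mb windows whose mean input signal was more than 1.5 times that of the median autosomal window, as did 80 of all 651 members (12.3%). The window ratio was 1.77 at AKT1S1/TBC1D17, 1.51 at RHBDD3/EWSR1, 1.71 at UFD1/CDC45, 1.79 at AAGAB/IQCH and 1.90 at DPM1/MOCS3. Without those windows 571 members remained, with a median of 62 tags, and the excess over the unpaired set stayed at 9 tags. CCAAT lay within 100 bp of the summit in 11 of the 33 members with 200 tags or more (33.3%), near its share of 37.5% over all members, while 2 held CCGGAAG and 20 held neither.

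**Figure D1:**
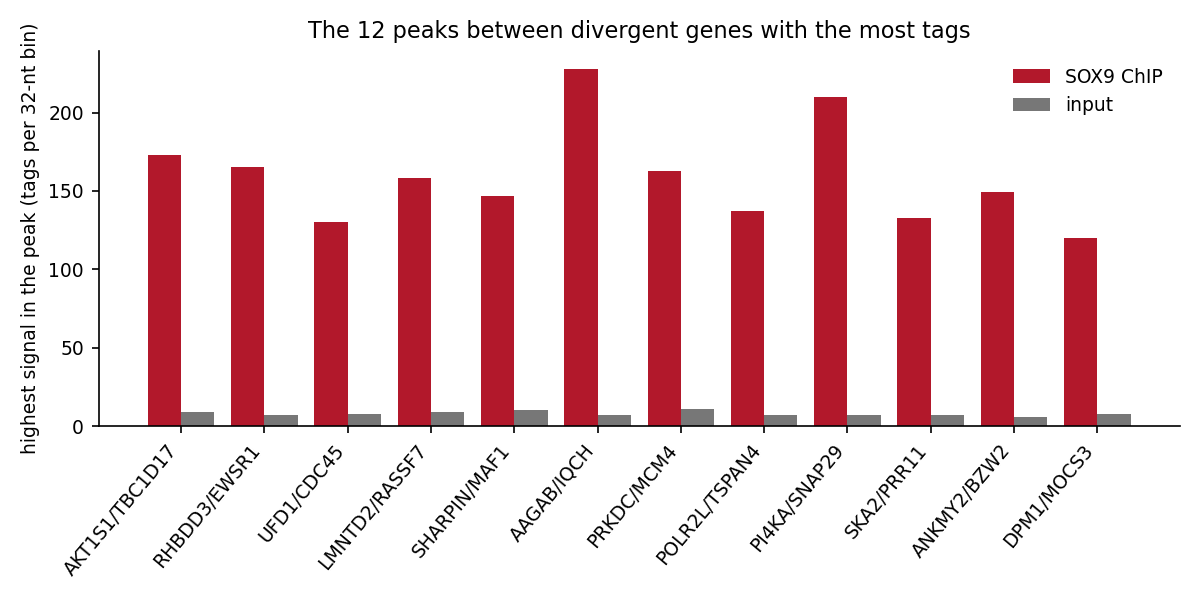
Highest signal within the peak interval (y axis, tags per 32-nt bin, from 0) of SOX9 ChIP (red) and input (grey) for the 12 members with the most tags, each named by its gene pair and ordered by tags from the left. ChIP maxima range from 120 to 228 tags per bin and input maxima from 6 to 11, with 1 library behind each bar.

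At the lower end were the members with the lowest fold enrichment. NAA50/ATP6V1A had a fold of 3.94 and a ChIP maximum of 17 tags per bin against 12 in the input, GSS/MYH7B a fold of 4.33 (20 against 10) and KBTBD3/AASDHPPT a fold of 4.59 (19 against 9). GSS encodes glutathione synthetase and ATP6V1A a subunit of the vacuolar proton pump. Their input maxima were above the median of 6, and their ChIP maxima exceeded the input by 5 to 10 tags per bin. GSS/MYH7B lay in a 1-Mb window with 1.92 times the input of the median window. Of the 651 members, 620 (95.2%) had a MACS false discovery rate of at most 0.01%, against 92.8% of peaks at unpaired promoters and 87.9% of all peaks.

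Where the summit lay depended on the width of the gap. Over all members 545 summits lay between the TSSs, with 196 in the middle 33.3% of the gap (30.1% of members, 26.7 to 33.7) and 349 in the outer parts, and 106 lay up to 100 bp inside a gene. The nearer TSS was that of the minus-strand gene in 330 members (50.7%, 46.9 to 54.5), an interval that includes an even split between the strands. Summits were within 100 bp of a TSS in 522 members (80.2%), which is set partly by the rule, since every summit in a gap of at most 200 bp meets it. At unpaired promoters 3484 of 5876 summits (59.3%) were within 100 bp, with a median of 80.5 bp upstream of the TSS.

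In wide gaps the summit lay by one of the TSSs and not halfway between them. The middle 33.3% of the gap held 23.1% of summits at gaps of at most 100 bp, 43.8% at 100 to 200 bp, 42.7% at 200 to 300 bp, 26.1% at 300 to 500 bp and 11 of 120 (9.17%, 5.20 to 15.7) over 500 bp. The median distance to the nearer TSS was 20, 47, 77, 86 and 89.5 bp in the same order, and thus changed little once the gap exceeded 200 bp. Inside a gap this distance cannot pass the midpoint, and inside a gene the rule caps it at 100 bp. The low values in the narrow classes are thus partly set by the gap. The distance to the farther TSS had medians of 59, 102, 174, 294 and 595.5 bp, a growth that the wider gaps also partly set. Peak intervals still covered both TSSs in 608 members (93.4%), and in 82 of the 120 with the widest gaps. Since each tag was extended to 150 bp, a summit in a narrow gap cannot be assigned to either gene.

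**Figure D2:**
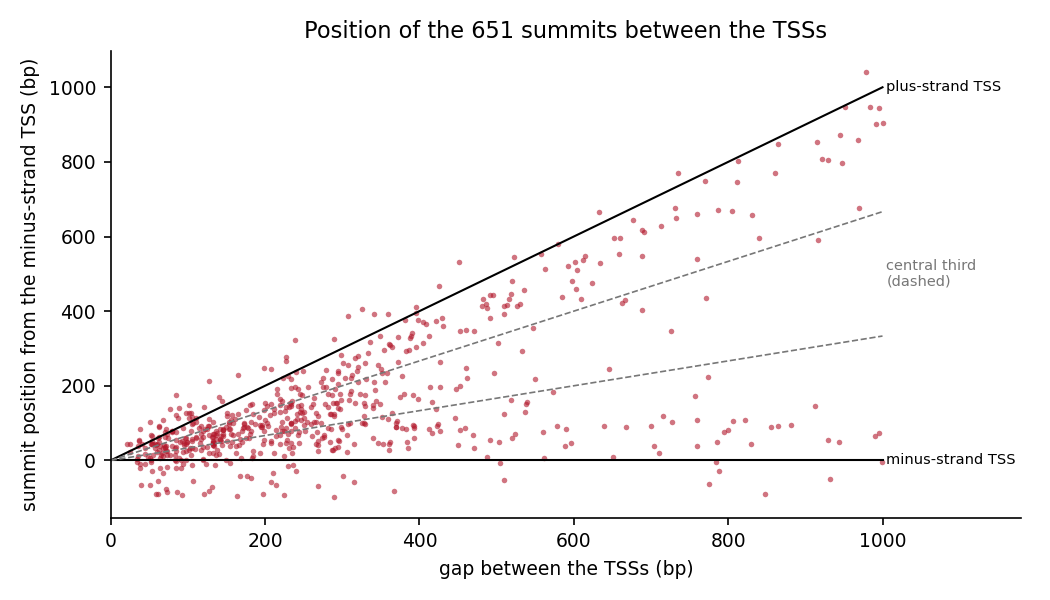
Position of each of the 651 summits (y axis, bp from the minus-strand TSS towards the plus-strand TSS) against the gap between the TSSs (x axis, bp). Solid lines mark both TSSs and dashed lines the middle 33.3% of the gap; at wide gaps the points follow both solid lines, and 11 of 120 members with gaps above 500 bp fall between the dashed ones.

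The signal maps showed the same at single pairs and in the mean. Mean ChIP signal over pairs with a summit was highest at the midpoint for gaps of at most 100 bp (24.1 tags per bin, input 3.95), 100 to 200 bp (32.1, input 4.52) and 200 to 300 bp (33.0, input 3.87). At 300 to 500 bp it was 27.5 at 64 bp from the midpoint and 27.2 at the midpoint. Over 500 bp the mean was 10.1 at the midpoint (input 2.72) and 19.1 at 224 bp from it (input 3.14). In most wide members the ChIP signal was above the input at the farther TSS too. In the 120 members with gaps over 500 bp the highest ChIP signal within 100 bp of the nearer TSS had a median of 24 (quartiles 16.75 and 38.25, input 5), and that at the farther TSS a median of 12.5 (7 and 17, input 4). ChIP exceeded input at the farther TSS in 110 of 120, and reached at least 50% of the nearer value in 52. These members hold a peak called against this input, and in 82 of them the peak interval covered both TSSs. ChIP above input is thus partly set by the choice. Even among pairs with no summit, the ChIP maximum around the gap was above the input maximum in 244 of 278.

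Single pairs differed in how even both ends were. SKA2/PRR11 had 133 tags per bin at SKA2 (input 6) and 55 at PRR11 (input 5). CBX5/HNRNPA1 had 115 at HNRNPA1 (input 6) and 15 at CBX5 (input 5), so its maximum was on the side of the splicing factor. PRKDC/MCM4 had 118 at MCM4 (input 10) and 26 at PRKDC (input 5). Only 2 pairs held a pair of separate peaks. At PASK/PPP1R7, with a gap of 995 bp, the peak near PPP1R7, a regulator of protein phosphatase 1, had 59 tags, with a maximum of 35 against 5 in the input, and the peak near PASK, a PAS-domain kinase, had 51, with 29 against 5. At CRYZL1/ITSN1 the peaks had 51 and 45 tags.

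The limits of the rule cut through similar peaks. At the widest gaps allowed were ATP6V1G2/NFKBIL1 (1 kb, 51 tags), HNRNPA2B1/CBX3 (999 bp, 189 tags) and PASK/PPP1R7 (995 bp). Just over the limit, and so not members, HNRNPUL2/TTC9C (1029 bp) had 198 tags, TSR1/SGSM2 (1044 bp) had 28 and NDUFA11 with an unnamed gene (1051 bp) had 25. For the tolerance of 100 bp, TTI1/RPRD1B (97 bp inside the gene, 112 tags) was the last member and PLOD3/ZNHIT1 (104 bp, 105 tags) the first peak left out.

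Motifs were searched within 100 bp of the summit on both strands, and none of the searched letter strings holds another. CCAAT, the NF-Y box, was found at 244 members (37.5%, 33.8 to 41.3), 34.0% of peaks at unpaired promoters (32.8 to 35.2) and 26.4% of all peaks. In windows of the same length upstream of all canonical TSSs its share was 30.3%. The difference between members and the unpaired set was 3.53 points (-0.305 to 7.50), an interval that includes 0. CCGGAAG was found at 184 members (28.3%, 24.9 to 31.8), 17.9% of the unpaired set (16.9 to 18.9), 9.17% of all peaks and 10.9% of all upstream windows. Its difference was 10.4 points (6.92 to 14.1), and 7.66 points (3.60 to 11.96) among summits within 100 bp of a TSS in both sets. Both motifs occurred together at 47 members and neither at 270 (41.5%).

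Smaller differences were seen for other promoter motifs. TGACGT, the core of the cyclic-AMP response element, was at 14.4% of members and 9.56% of the unpaired set (difference 4.87 points, 2.26 to 7.87), with 7.92% in all upstream windows. ATGGCGG, the site of YY1, was at 14.0% and 9.28% (4.70 points, 2.13 to 7.67, all upstream windows 2.60%), and its difference was 2.68 points (-0.413 to 6.21) among summits within 100 bp of a TSS. The site of ZNF143 was at 3.07% and 1.74% (1.34 points, 0.201 to 2.99, all upstream windows 1.29%), and its difference was 1.17 points (-0.048 to 3.02) among summits within 100 bp of a TSS. These motifs lay around a minority of members.

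TGANTCA, the AP-1 site, was the only motif searched whose difference had an interval below 0. It was at 8 members (1.23%) and 3.20% of the unpaired set (-1.97 points, -2.74 to -0.721), with 3.90% in all upstream windows. Over all peaks its share was 15.1%, so it was low in both promoter sets. The SOX half-sites ACAAAG and ACAATG, counted together, were at 55 members (8.45%) and 9.97% of the unpaired set (-1.52 points, -3.58 to 0.976). Their share was 12.1% in all upstream windows and 24.4% over all peaks. These half-sites were thus not more frequent around member summits than upstream of genes at large. Other forms of the SOX9 consensus were not searched. GGGCGG, the site of SP and KLF factors, was at 63.3% and 65.8% (-2.49 points, -6.45 to 1.33, all upstream windows 56.5%, all peaks 37.7%). The NRF1 site was at 7.07% and 6.94%, CACGTG, the E-box, at 9.83% and 8.90%, and TATAAA at 2.61% and 2.67%, each with an interval of the difference that includes 0. Their shares in all upstream windows were 7.17%, 6.98% and 7.75%, and over all peaks 3.03%, 5.90% and 7.58%. Median G and C content of the windows was 65.7% in members and 68.7% in the unpaired set. The part of base composition in these shares was not tested.

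Motif content changed with the gap. CCAAT was at 15.7% of the 108 members with gaps of at most 100 bp (10.1 to 23.8), 37.7% at 100 to 200 bp, 50.3% at 200 to 300 bp (42.3 to 58.4), 38.1% at 300 to 500 bp and 40.8% over 500 bp. CCGGAAG ran the other way, at 42.6% (33.7 to 52.0), 34.9%, 25.2%, 20.1% and, over 500 bp, 24 of 120 members in the same order. Among members, those with the narrowest gaps thus had the highest share with CCGGAAG and the lowest with CCAAT. The CCGGAAG interval of the next class (27.7 to 43.0) overlaps that of the narrowest. At gaps of at most 100 bp the window around the summit extends beyond the gap, and the part of this in the shares was not tested. At the midpoint of the gap, which does not use the summit, CCAAT lay within 100 bp in 37.8% of pairs with a summit and 25.9% of pairs without (difference 11.9 points, 5.39 to 17.9). For CCGGAAG these shares were 25.9% and 21.6% (4.28 points, -1.79 to 9.85), and for the NRF1 site 9.63% and 14.0% (-4.40 points, -9.38 to -0.0709). The share of pairs with a summit also moved with the gap, and the part of gap width in these differences was not tested.

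The CCAAT boxes were searched only within 100 bp of the summit, and by the rule most summits lay in the gap, upstream of both genes. How close they lay to the summit and to the upstream side of a TSS is thus partly set by the search. The 244 members with CCAAT held 437 boxes, of which 1 box was found in 119 members and 2 or more in 125. The median distance from a box to the summit was 37 bp (quartiles 17 and 64). Within the window there were 159 boxes at 0 to 25 bp, 120 at 26 to 50, 95 at 51 to 75 and 63 at 76 to 100. From the nearer TSS the boxes lay at a median of 67 bp upstream (41 and 103), and 158 of 437 were 40 to 79 bp upstream. They read CCAAT on the strand of the nearer gene in 190 of 437 (43.5%). Neighbouring boxes in 1 window were a median of 39 bp apart (30 and 54, 193 neighbours), and 127 of these spacings were between 26 and 60 bp.

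Members with several boxes were taller. Median tags were 62 with no box (interval 58 to 65), 67 with 1 box (61 to 73) and 82 with 2 or more (70 to 95). The MACS fold had a median of 9.52 (9.01 to 10.03), 10.1 (8.82 to 11.7) and 15.7 (12.7 to 18.1) in the same order, while the median width was 963, 939 and 965 bp. In the unpaired set peaks with CCAAT also had more tags, 65 against 53 without. Members with CCGGAAG did not have more tags than those without it, with 61 (55 to 67) against 68 (64 to 73). Tags and the shares of both motifs also moved with the gap, and the part of gap width in these heights was not tested. The most boxes were found at TEPSIN/NDUFAF8, with 6 in the window, 244 tags and a fold of 73.6.

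Groups of genes known for bidirectional promoters were set beside all pairs. In each of the 8 groups the genes outside pairs also had a summit more often than all unpaired TSSs (33.4%), with shares between 53.5% and 80.5%, and in 4 groups the share outside pairs was above that of the pairs, with overlapping intervals. All 8 groups, chosen as known for such promoters, had more of their genes in pairs (16.3% to 33.8%) than protein-coding genes at large (9.44%). Of the DNA repair genes 39 of 129 were in pairs, and 38 of their 42 pairs had a summit (90.5%, 77.9 to 96.2), against 71.5% of all pairs. Of the 90 repair genes outside pairs, 58 had one (64.4%, 54.2 to 73.6). Besides PRKDC/MCM4 the tallest of these were XRCC3/ZFYVE21 with 130 tags, CHEK2/HSCB with 129 and RECQL/GOLT1B with 124. Their ChIP maxima were 68, 49 and 75 tags per bin, against 4, 7 and 7 in the input. CHEK2/HSCB lay in a 1-Mb window with 1.51 times the input of the median window. XRCC3 encodes a protein of homologous recombination, CHEK2 a checkpoint kinase and RECQL a DNA helicase. The 35 members of this group had a median of 67 tags, near that of all members. CCAAT was at 17 of these 35, against 244 of all 651 members (37.5%).

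Genes of DNA replication and mitosis were in 20 pairs, of which 14 had a summit (70.0%, 48.1 to 85.5), against 66 of 82 outside pairs (80.5%, 70.6 to 87.6). After UFD1/CDC45 and PRKDC/MCM4 came MCM7/AP4M1 with 196 tags, a maximum of 49 against 8 in the input and 2 CCAAT boxes. AURKA/CSTF1, with the gene of a mitotic kinase, had 131 tags (36 against 7) and 2 boxes. CCAAT was at 10 of the 14 members of this group, whose median was 96 tags, against 37.5% of all members.

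Mitochondrial ribosomal protein genes were in 27 pairs, 24 of them with a summit (88.9%, 71.9 to 96.1), against 41 of 52 such genes outside pairs (78.8%, 66.0 to 87.8). MRPL46/MRPS11, in which both genes encode mitochondrial ribosomal proteins, had 249 tags and a maximum of 129 against 6 in the input, without CCAAT. MRPL13/MTBP had 183 tags (61 against 14) and lay in a 1-Mb window with 3.64 times the input of the median window. SARS2/MRPS12, the mitochondrial seryl-tRNA synthetase beside a ribosomal protein, had 164 tags (56 against 16) and 4 CCAAT boxes. Its 1-Mb window had 1.89 times the input of the median window. MRPS27/PTCD2 had 154 tags (87 against 6). CCAAT was at 10 of the 22 members, against 37.5% of all members.

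Replication-dependent histone genes formed 11 pairs in which both genes are histones, and 9 had a summit (81.8%, 52.3 to 94.9), against 23 of 43 histone genes outside pairs (53.5%, 38.9 to 67.5). H2BC12/H2AC12 had 125 tags and a maximum of 74 against 6 in the input. H2AC25/H2BC26 had 94 tags (41 against 4), H2BC11/H2AC11 had 70 (35 against 6) and H2AC15/H2BC15 had 62 (31 against 7). These 4 pairs held 5, 3, 4 and 2 CCAAT boxes, and 8 of the 9 members held at least 1, against 37.5% of all members. The median of the 9 members was 61 tags, and reads that map to more than 1 place had been removed, which can lower the tags at near-identical histone copies.

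In the remaining groups, as in the replication and mitosis genes and the histone genes, the interval of the share included that of all pairs. Chaperone and mitochondrial import genes had a summit at 15 of 19 pairs (78.9%, 56.7 to 91.5) and 36 of 48 genes outside pairs (interval 61.2 to 85.1%). The members were led by ATPSCKMT/CCT5 (235 tags), PSPH/CCT6A (141), HSPD1/HSPE1 (96) and TOMM70/LNP1 (84). CCT5 and CCT6A are subunits of the cytosolic chaperonin, HSPD1 and HSPE1 the mitochondrial chaperonin and its lid, and TOMM70 an import receptor. At HSPD1/HSPE1 the maximum was 42 tags per bin against 9 in the input. CCAAT was at 5 of the 13 members of this group, against 37.5% of all members. Aminoacyl-tRNA synthetase genes had a summit at 5 of 7 pairs (71.4%, 35.9 to 91.8) and 24 of 30 genes outside pairs (interval 62.7 to 90.5%). The members were SARS2/MRPS12, YARS1/S100PBP (99 tags), EARS2/UBFD1 (98), LYRM4/FARS2 (76) and HARS1/HARS2 (44), the cytosolic and mitochondrial enzymes for histidine. Of these 5 members 2 held CCAAT.

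Proteasome genes had a summit at 6 of 9 pairs (66.7%, 35.4 to 87.9) and 33 of 41 genes outside pairs (80.5%, 66.0 to 89.8). Among the members were PSMA7/SS18L1 with 214 tags, SIRT3/PSMD13 with 83, CEP76/PSMG2 with 78 and PSME4/ACYP2 with 51. The 1-Mb window of PSMA7/SS18L1 was just above 1.5 times the input of the median window. CCAAT was at 1 of the 6 members of this group, against 37.5% of all members. RNA polymerase and splicing genes had a summit at 18 of 26 pairs (69.2%, 50.01 to 83.5) and 43 of 61 genes outside pairs (70.5%, 58.1 to 80.4). Their members were tall, with a median of 141.5 tags against 66 over all members. They were led by POLR2L/TSPAN4, CBX5/HNRNPA1 with 251 tags, POLR2I/TBCB with 216 and POLR1A/PTCD3 with 212, of which CBX5/HNRNPA1 and POLR2I/TBCB held 4 CCAAT boxes each. The ChIP maxima of these last 3 members were 115, 76 and 102 tags per bin, against 8, 9 and 6 in the input. CCAAT was at 8 of the 18 members with RNA polymerase and splicing genes.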

How the data were processed

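SOX9 ChIP and input DNA of HT-29 cells were measured with 1 library each. Per the study's methods, single-end reads of 50 nt were aligned to hg19 with BWA (version not given in the sources used here), only unique, non-duplicate reads were kept, and the input was thinned at random to the ChIP number. The authors extended tags to 150 bp in 32-nt bins, which gave the deposited signal maps, and called peaks with MACS at p = 1e-07 on the 1 ChIP library against input. The deposited peak table gives tag counts, the score (-10 log10 p), the fold enrichment ratio and the false discovery rate in percent.

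Pairs were built from GENCODE release 44 mapped to hg19 (282 of 20163 protein-coding genes had no canonical TSS). A peak in several pairs (47 members) was counted once, with the narrowest gap among named genes. Motifs were matched by letters in windows of 100 bp on either side of the summit. Wilson, Newcombe and order-statistic intervals at 95% were computed, and no test across samples was possible. The input ratio is the mean input signal of a 1-Mb window over the median autosomal window. Python 3.11.15, SciPy 1.17.1 and pysam 0.24.0 were used, and the matching and intervals were tested on simulated data. Pairs named are the 12 members with the most tags, the 6 tallest with CCAAT, up to 4 per gene list, pairs with 2 peaks, those at the limits of the rule and the 3 of lowest fold. The members, gene lists and motifs were chosen with earlier results of these data known. A sequence stretch at a further member with the ETS motif is not reported here. The interval file that repeats the peak table was not used. Alternatives tried were a score of at least 100, interval midpoints, gaps of at most 500 bp, all protein-coding TSSs, no tolerance, equal windows, stricter unpaired TSSs, motif windows of 50 and 25 bp, maximal signal and removal of high-input windows.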

Additional observations from a re-analysis of the deposited data

How the results depend on the processing

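Of 103 recomputed values under 15 settings, 56 stayed within the interval of the reported value (for the number of members, within 1.5 times) and 47 moved outside it, and no difference changed sign. The difference of bound shares kept its interval above 0 in all 10 settings that bear on it, while that of CCAAT shares did so in 3 of 9. At a MACS score of at least 100, 60.7% of pairs and 26.5% of unpaired TSSs had a summit (difference 34.2 points), with 71 median tags and a ChIP to input ratio of 4.05. With TSSs of all protein-coding transcripts the shares were 52.3% and 35.8% (16.5 points), the lowest difference of any setting. With no tolerance they were 59.3% and 28.6% (30.8 points), and 41.5% of members held CCAAT. Equal windows gave 37.3% and 19.7% (17.6 points). Unpaired TSSs without any divergent transcript gave 29.5% (41.9 points), interval midpoints 30.6% of unpaired TSSs, and removal of high-input windows 32.2% of unpaired TSSs and 62 median tags. CpG-rich promoters alone, a setting chosen after the data were seen like 3 others, gave 48.7% of unpaired TSSs and 25.3 points. Gaps of at most 500 bp put 34.8% of summits in the middle of the gap. Motif windows of 50 bp and 25 bp lowered the CCAAT share to 28.1% and 19.8% and the CCGGAAG share to 17.8% and 9.52%, as shorter windows must. The highest signal in place of tags gave a median of 25 and a difference of 3 tags per bin. No paired analysis was possible because there was 1 ChIP and 1 input library. For settings that do not shorten a window or drop peaks by construction, the cause of the shift was not tested. Depth was the same in both libraries and was not varied.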
